A study of Mus musculus with 2 samples.

Results

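Metallothioneins and the genes that sense and export zinc were followed across the cell types of mouse bone marrow in 4 genes: Mt1, Mt2, Mtf1 and Slc30a1. They were taken by gene symbol from the 32286 features of the count matrices, and all 4 were found. The choice came from the values: in an earlier look at these data Mt1 had the largest rise among B-lineage cells, so its values there are given as a description only. The study asked how gene expression in blood-forming cells of the marrow differs when MYC is overexpressed from haematopoietic stem cells on. It comprises 2 droplet-based single-cell RNA libraries of primary bone marrow, 1 of each genotype, counted at transcript 3′ ends. The control library is of genotype Mx1Cre+/-;Rosa26+/+, and its counterpart, the MYC library, is of genotype Mx1Cre+/-;Rosa26LSL-MYC/LSL-MYC. Both carry Mx1Cre, a Cre recombinase under an interferon-inducible promoter that is active in many cell types besides stem cells. In the MYC library a MYC cassette behind a removable stop sits on both Rosa26 alleles. The labels give no age, no inducing agent and no number of animals behind either library. With 1 library per group no test between genotypes was possible. All intervals are at 95% and reflect counting alone, of UMIs or, for shares of cells, of the cells of 1 library. Cells of a library are not replicates of its genotype.

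Metallothioneins are small cysteine-rich proteins that bind zinc and copper and buffer the free metal in the cytoplasm. When free zinc rises, MTF1, a zinc-finger transcription factor that senses it, binds metal response elements in the promoters of Mt1, Mt2 and Slc30a1. Slc30a1 encodes ZnT1, the transporter that moves zinc out across the plasma membrane, so buffer and exporter are known to be induced together by metal, and the metallothionein genes respond to glucocorticoids and to stress as well.

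The protein-coding metallothionein genes are neighbours on the + strand of chromosome 8 in GRCm38, with Mt2 (ENSMUSG00000031762) at 8:94172664-94173568 and Mt1 (ENSMUSG00000031765) at 8:94179082-94180327, 5513 bases apart. Mtf1 (ENSMUSG00000028890) lies at 4:124802104-124849800 and Slc30a1 (ENSMUSG00000037434) at 1:191906767-191913247, both on the + strand and protein-coding. The annotated transcripts of Mt1 and Mt2 share 0 stretches of 50 bases with each other or with another gene. The 250 bases before the RefSeq start of the 3 genes that MTF1 is known to act on are printed to show matches to its element. Capitals mark the 7-base core of the metal response element, searched as TGCACNC and TGCGCNC on both strands; a core on the - strand appears as its reverse complement.
Mt1 promoter, chr8:94178839-94179088, + strand: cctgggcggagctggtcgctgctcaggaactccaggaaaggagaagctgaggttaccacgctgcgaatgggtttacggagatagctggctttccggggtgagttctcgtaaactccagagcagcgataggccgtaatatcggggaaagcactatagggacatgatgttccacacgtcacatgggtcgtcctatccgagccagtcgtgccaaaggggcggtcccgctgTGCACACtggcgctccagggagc
Mt2 promoter, chr8:94172368-94172617, + strand: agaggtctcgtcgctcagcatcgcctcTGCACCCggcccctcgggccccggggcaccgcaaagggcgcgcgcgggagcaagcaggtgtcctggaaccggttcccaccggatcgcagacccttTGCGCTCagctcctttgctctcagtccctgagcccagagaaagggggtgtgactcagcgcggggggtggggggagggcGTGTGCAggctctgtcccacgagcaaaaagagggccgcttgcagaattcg
Slc30a1 promoter, chr1:191906531-191906780, + strand: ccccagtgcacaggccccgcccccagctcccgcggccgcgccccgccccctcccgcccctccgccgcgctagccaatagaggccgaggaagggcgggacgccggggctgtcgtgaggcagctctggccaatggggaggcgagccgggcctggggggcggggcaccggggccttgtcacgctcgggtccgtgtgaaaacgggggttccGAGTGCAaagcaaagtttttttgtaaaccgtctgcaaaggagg
The Mt1 stretch held 1 core, 17 to 23 bases before the start. Mt2 held 3, at 217 to 223, 122 to 128 and 44 to 50 bases before its start, the last of them on the - strand. Slc30a1 held 1 on the - strand, 37 to 43 bases before the start. Of all RefSeq stretches of 250 bases before the start, 21.4% held at least 1 core and 1.26% at least 3. In the 300-base RefSeq windows, which run from 250 bases before to 50 after the start, the counts were 3 for Mt1, 4 for Mt2, 2 for Slc30a1 and 0 for Mtf1. Of 32851 such windows in the RefSeq table, 7.11% held at least 2 cores, 1.97% at least 3 and 0.517% at least 4. The bases after the start held 2 of the cores counted for Mt1, 1 for Mt2 and 1 for Slc30a1, so the printed stretches leave these out. The windows follow the RefSeq start alone, which is not GENCODE's: for Mt1 it is 94179089 against 94179082. The matches are letters, not measured binding.

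The control library held 17073 barcodes and 131884603 UMIs (unique molecular identifiers, 1 per captured transcript), and the MYC library 14496 and 110012176. After filters 14688 and 12251 cells were kept, with medians of 5314 and 6039 UMIs per cell. The libraries shared 97 barcodes, 77 of them among kept cells. A feature named MYC in the matrices, the check on the labels, had 0 UMIs in kept control cells (at most 0.0310 CPM) and 281 in kept cells of the MYC library. Clustering gave 28 clusters, 25 of which were named from cell type markers. The 3 unnamed ones were cluster 10 (2446 control and 2568 MYC cells), whose median UMI count was 0.135 of its library's, cluster 19 (20 and 608 cells), led by complement and monocyte genes, and cluster 24 (91 and 105 cells), led by stromal genes. Of 16 named types, 13 had at least 50 cells in each library. Levels are CPM, the counts of a gene per 1000000 UMIs of a type's summed cells. One UMI stands for 1 transcript 3′ end whatever the transcript's length, so levels of different genes are set side by side without scaling to length.

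Mt1 was concentrated in progenitors, most of all in erythroid progenitors, the early red-cell precursors. In the control library erythroid progenitors held 480 CPM of Mt1 (465 to 495) and granulocyte progenitors 406 (393 to 420). Plasma cells, the antibody-secreting end of the B lineage, followed at 96.5 CPM (88.0 to 106), then monocytes at 56.5 and stem or multipotent progenitors at 56.2, whose intervals overlapped. Basophils or mast cells (33.5 CPM) lay below these with an interval apart. Below them each type's interval overlapped that of its upper neighbour, from erythroid cells (25.1) through immature neutrophils (23.8), nonclassical monocytes (19.6), mature neutrophils (12.7), T or NK cells (11.98) and megakaryocytes (10.8) to mature B cells (9.95). Macrophages, with only 52 and 30 cells, held 201 and 248 CPM in control and MYC. The order changed in the MYC library. Erythroid progenitors still led at 650 CPM (623 to 677), but plasma cells came next at 337 (311 to 365), above granulocyte progenitors at 211 (200.3 to 222). Erythroid cells (119 CPM) and stem or multipotent progenitors (117) took the next places with overlapping intervals.

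**Figure D1:**
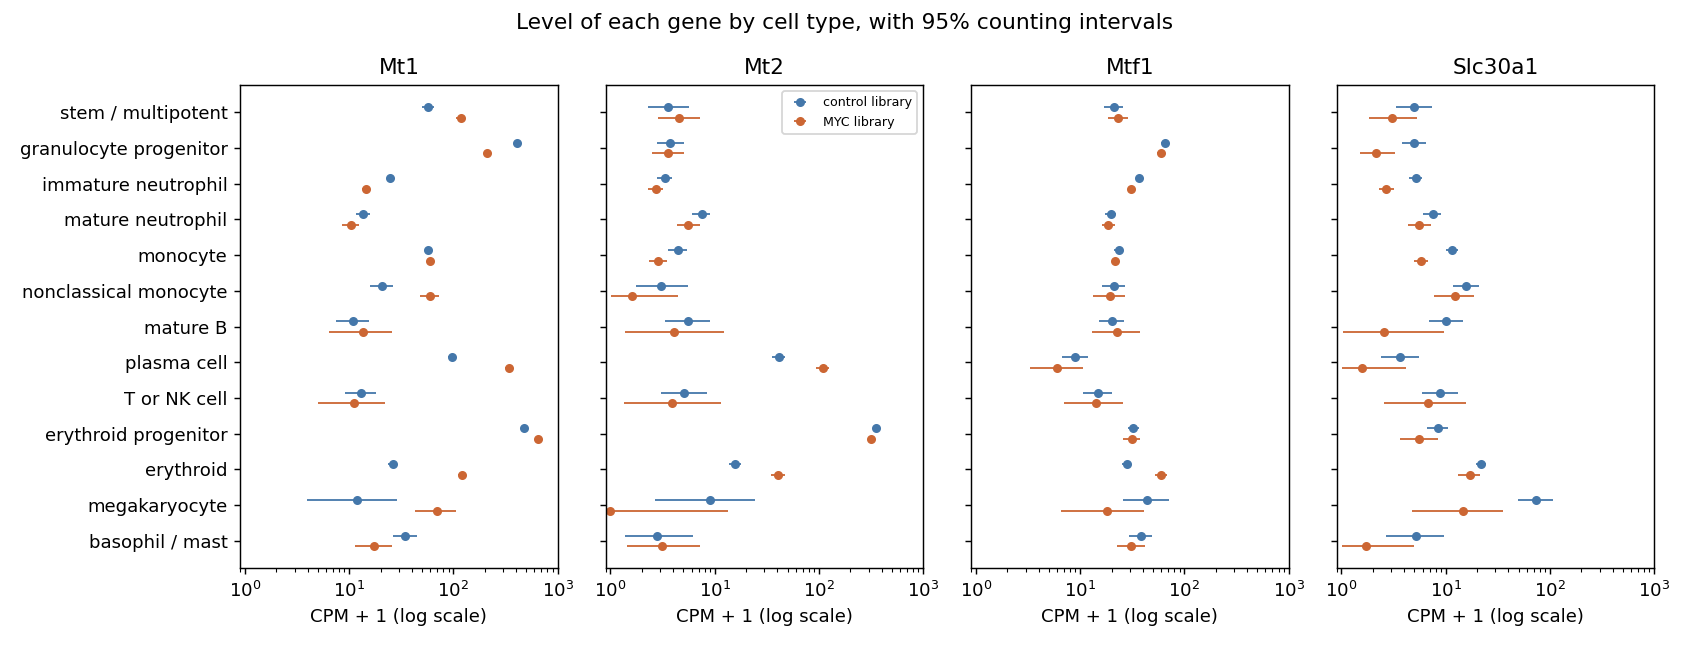
Levels of Mt1, Mt2, Mtf1 and Slc30a1 in 13 cell types, as CPM + 1 on a logarithmic axis, with the control library in blue and the MYC library in orange; bars are 95% Poisson counting intervals of 1 library each. Mt1 is high in erythroid and granulocyte progenitors and in plasma cells, Mt2 in erythroid progenitors at 355 and 316 CPM, and Slc30a1 is lower in the MYC library in every row.

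Most metallothionein transcripts of the marrow came from few cells. Erythroid progenitors were 1.88% of control cells but held 36.1% of all Mt1 UMIs and 78.5% of all Mt2 UMIs. In the MYC library they were 0.906% of cells and held 28.4% and 63.0%. Granulocyte progenitors held 33.1% of control and 18.4% of MYC Mt1 UMIs, but only 0.658% and 1.03% of Mt2 UMIs. Mtf1 and Slc30a1 were spread more widely: immature neutrophils held 32.4% of control Mtf1 UMIs and erythroid cells 29.0% of control Slc30a1 UMIs.

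**Figure D2:**
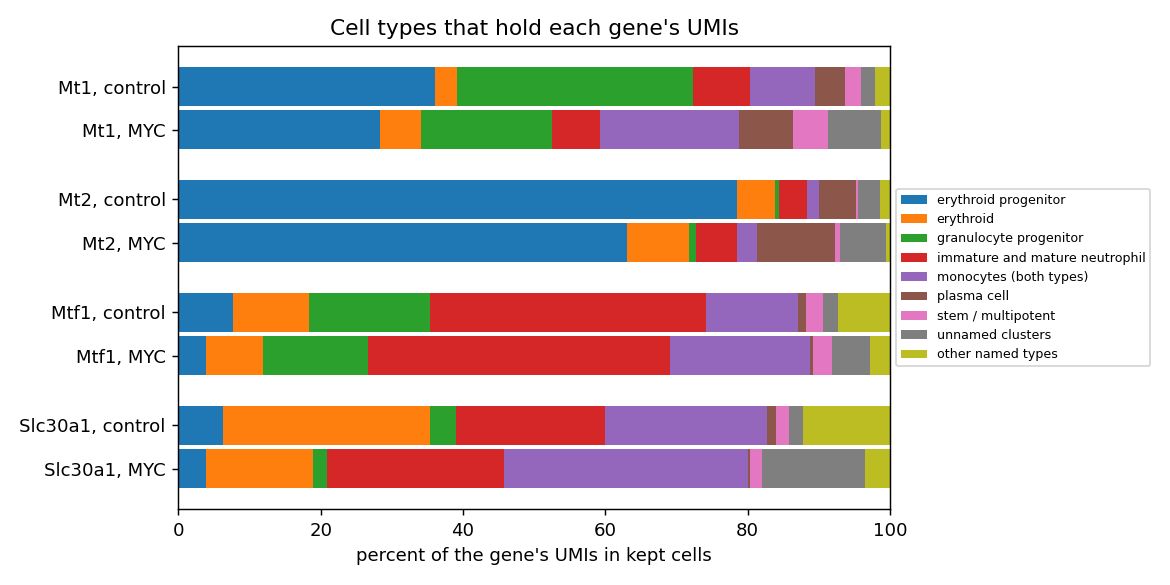
Share of each gene's UMIs in kept cells, in percent, that each cell type held, 1 bar per gene and library. Erythroid progenitors take 78.5% of control and 63.0% of MYC Mt2, granulocyte progenitors are large for Mt1 but not for Mt2, and neutrophils and monocytes make up most of Mtf1.

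Mt2, the other widely expressed metallothionein, was high beside Mt1 in some lineages and scarce in others. Its control level was 355 CPM (342 to 368) in erythroid progenitors, 40.2 (34.7 to 46.2) in plasma cells and 14.8 (12.8 to 16.99) in erythroid cells, and at most 8.09 CPM in every other type. These 3 types led in the MYC library too, at 316, 108 and 39.9 CPM. Granulocyte progenitors, second for Mt1 in the control, held 2.75 and 2.58 CPM of Mt2.

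The balance of the pair differed between lineages. Mt2 made up 42.5% of Mt1 and Mt2 UMIs in control erythroid progenitors (41.4 to 43.7) and 29.4% in plasma cells (26.0 to 33.0), against 0.672% in granulocyte progenitors (0.435 to 0.990), 4.40% in stem or multipotent progenitors and 5.70% in monocytes. It rose again along the neutrophil series, to 8.83% in immature and 33.8% in mature neutrophils. In mature neutrophils Mt1 and Mt2 were both low, at 12.7 and 6.48 CPM. Control T or NK cells, low in both genes, had 25.6% on 43 UMIs. The unnamed cluster 10, whose barcodes hold few UMIs each, had 34.5% at 98.9 CPM of Mt1 and 52.1 of Mt2 in the control, against 96.5 and 40.2 in plasma cells. How much free RNA adds to these shares was not tested. In the MYC library the Mt2 share was lower in erythroid progenitors (32.7%, 31.1 to 34.3), erythroid cells (25.04% against 37.1%) and monocytes (3.05% against 5.70%). The intervals of the 2 libraries did not overlap in those 3 types. Of the monocyte clusters, cluster 14 had 28.1% in control (19.1 to 38.6) and 5.92% in MYC (3.55 to 9.20). In cluster 15 the intervals overlapped, at 3.59% (2.50 to 4.99) and 2.33% (1.55 to 3.35). The clusters of erythroid cells went apart, from 43.1% in control to 26.3% in MYC in cluster 8 and from 9.38% (4.38 to 17.1, on 96 UMIs) to 22.0% (16.2 to 28.9) in cluster 7. Over the neutrophil lineage the share was higher in the MYC library, at 5.62% (4.68 to 6.69) against 3.63% (3.12 to 4.20), with no single type of the lineage having intervals apart. In plasma cells the intervals of the libraries overlapped, at 24.3% (21.3 to 27.4) in MYC against 29.4% in control.

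**Figure D3:**
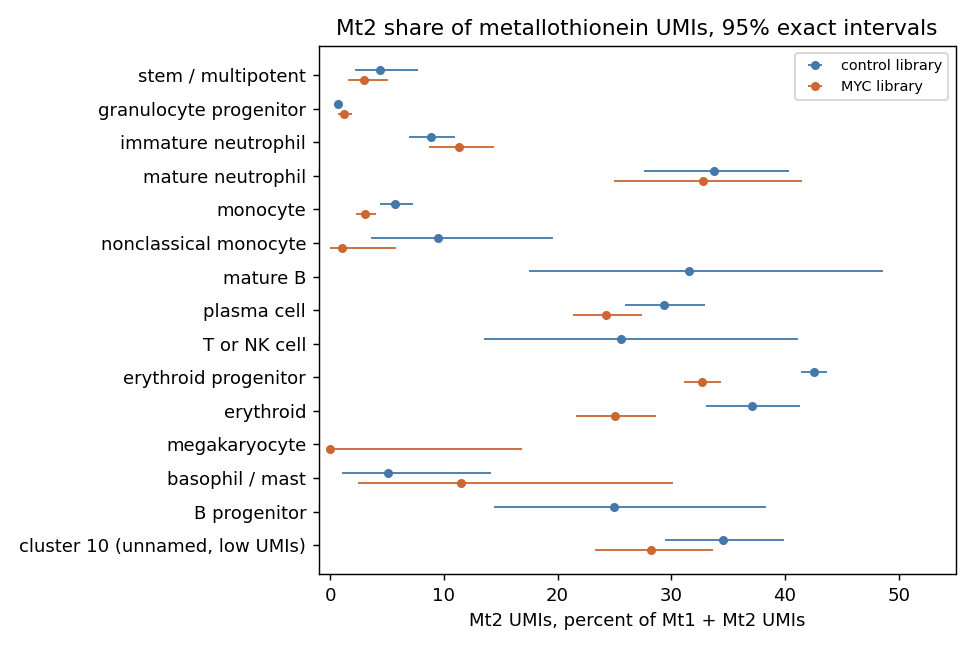
Mt2 UMIs as a percent of Mt1 and Mt2 UMIs together by cell type, control library in blue and MYC library in orange, with exact 95% binomial intervals; points with fewer than 20 UMIs are left out. Granulocyte progenitors sit at 0.672% and 1.21% and erythroid progenitors at 42.5% and 32.7%.

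Mtf1, the zinc sensor, was detected in every type within a narrower range. How much free RNA adds to the lowest levels was not tested. Control levels ran from 7.99 CPM in plasma cells (5.68 to 10.9) to 64.3 in granulocyte progenitors (59.2 to 69.7). Plasma cells were thus among the highest types for both metallothioneins and lowest for the factor known to drive them, with an interval that overlapped that of T or NK cells (13.8 CPM). The second-highest control level, 43.1 CPM in megakaryocytes, rested on 16 UMIs and its interval overlapped those of its neighbours on both sides. In the MYC library granulocyte progenitors (58.8 CPM) and erythroid cells (58.5 CPM) led together, and plasma cells were again lowest at 5.04.

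Slc30a1, the zinc exporter, had an order of its own. Among the 13 types control megakaryocytes, the platelet-forming cells, led at 72.8 CPM (48.0 to 106) from 27 UMIs in 58 cells, followed by erythroid cells at 20.9 (18.5 to 23.5), nonclassical monocytes at 14.8 (10.7 to 19.9) and monocytes at 10.5 (9.01 to 12.1). Plasma cells were lowest at 2.66 CPM and granulocyte progenitors next at 3.96, although both held much Mt1. In the MYC library erythroid cells held 16.0 CPM, megakaryocytes 13.6 from 4 UMIs and nonclassical monocytes 11.3, and these 3 intervals overlapped. The few macrophages held 59.1 CPM (33.1 to 97.4) from 15 UMIs in control and 24.0 (4.95 to 70.2) from 3 in MYC, above erythroid cells in both.

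Over all kept cells of the marrow Mt1 was 93.7 CPM in the control and 80.4 CPM with MYC. The log2 ratio of MYC over control was -0.22 (-0.26 to -0.18). Mt2 was 31.9 and 17.6 CPM (log2 ratio -0.86, -0.94 to -0.77), Mtf1 28.9 and 28.0 (-0.04, -0.12 to 0.03) and Slc30a1 8.26 and 4.09 (-1.01, -1.18 to -0.85). A gene was called when CPM + 1 differed at least 2-fold between the libraries and at least 50 UMIs were counted in all. By that rule 0 of the 4 genes was called, beside 1.11% of 14129 genes called higher and 4.08% called lower, and the median log2 ratio of all these genes was -0.16. Slc30a1 was 2.02-fold lower in CPM but under 2-fold in CPM + 1. The makeup of the libraries differed as well: erythroid progenitors held 7.06% of control UMIs and 3.52% of those of the MYC library. With the types of the MYC library weighted by the control library's UMI shares, Mt1 had a log2 ratio of 0.26, Mt2 0.066 and Slc30a1 -0.80. Mt1 was also higher in the MYC library as a mean over cells (0.22) and among cells under 5% mitochondrial UMIs (0.38), so no direction of Mt1 in whole marrow held throughout.

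Within cell types Mt1 differed in both directions. Its log2 ratio had an interval above 0 in 6 of 13 types, below 0 in 4 and across 0 in 3. It was higher in the MYC library in erythroid cells, plasma cells, nonclassical monocytes, stem or multipotent progenitors, megakaryocytes and erythroid progenitors, and lower in basophils or mast cells, granulocyte progenitors, immature neutrophils and mature neutrophils. Mt2 had 2 intervals above 0, in plasma and erythroid cells, and 2 below, in monocytes and erythroid progenitors. In erythroid progenitors the Mt2 interval included the median log2 ratio of all tested genes there, -0.16. The Mt1 interval of mature neutrophils likewise included the median of that type, -0.21. Plasma cells carried the B-lineage rise by which the genes were chosen, so their place in these counts, for Mt1 and for Mt2, is a description. Outside them the 2-fold rule called Mt1 higher in 3 types, erythroid cells, nonclassical monocytes and stem or multipotent progenitors, where 3.54%, 3.98% and 0.901% of tested genes were called higher, and Mt2 in erythroid cells.

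**Figure D4:**
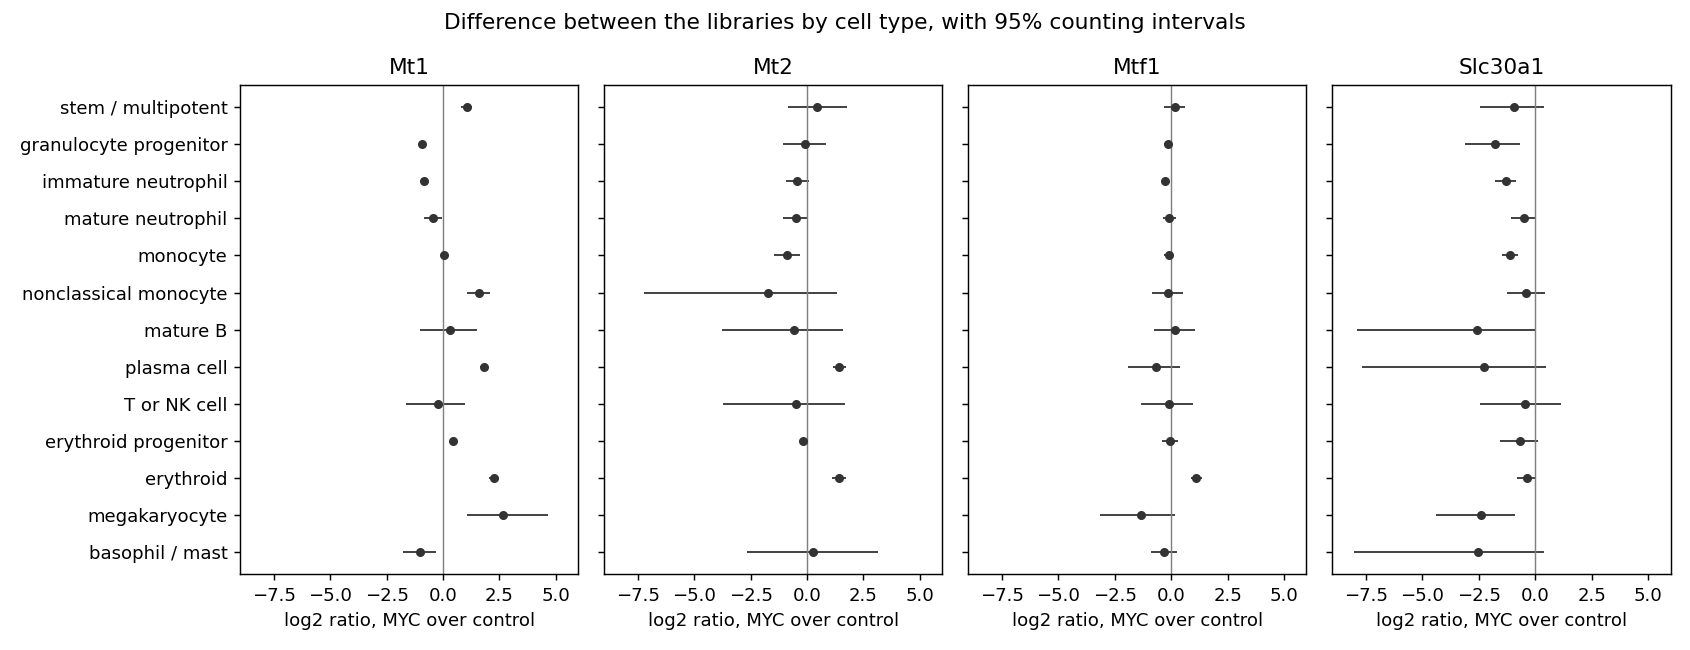
Log2 ratio of MYC over control by cell type for the 4 genes, with exact 95% conditional binomial intervals from 1 library per group; the vertical line marks equal levels, and megakaryocytes have no Mt2 ratio because the MYC library had 0 UMIs there. Mt1 lies on both sides of the line, from 2.66 in megakaryocytes to -1.03 in basophils or mast cells, and all 13 Slc30a1 ratios lie to its left.

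B-lineage cells, which chose this set of genes, held 47.7 and 241 CPM of Mt1 in control and MYC, and 19.7 and 77.0 CPM of Mt2. The log2 ratios were 2.34 (2.17 to 2.51) and 1.97 (1.68 to 2.25). Of the 678 lineage genes that averaged 100 CPM or more, Mt1 ranked 2 by its ratio. It passed that filter only through its MYC level, and the rank restates the values that chose the set. Mt1 and Mt2 were both called higher in the lineage, as were 3.16% of 9501 genes, from which nothing is read because the rule used this contrast. Plasma cells carried nearly all of it: their share of the lineage's Mt1 UMIs was 87.4% in control and 98.5% in MYC. Of all the lineage's UMIs they held 43.2% and 70.5%. B progenitors, the early stages in which immunoglobulin genes are rearranged, numbered 482 and 20 cells, and had 42 and 1 UMIs of Mt1. With the 3 B cell types at equal weight the lineage ratios were 1.61 for Mt1 and 1.20 for Mt2.

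Inside plasma cells (242 control and 86 MYC cells) Mt1 was 96.5 and 337 CPM, a log2 ratio of 1.80 (1.63 to 1.98), and Mt2 was 40.2 and 108 CPM, a log2 ratio of 1.43 (1.13 to 1.72). Both passed the 2-fold line, as did 7.17% of 6206 genes upwards, and nothing is read from it because these cells hold nearly all of the Mt1 that chose the set. As a mean over cells the Mt2 ratio was 0.84, under 2-fold. Mature B cells held 9.95 and 12.5 CPM of Mt1, with an interval of -1.03 to 1.51. Of plasma cells 52.1% (45.6 to 58.5) had an Mt1 UMI in the control and 72.1% (61.4 to 81.2) in the MYC library. Thinned to 2000 UMIs per cell the shares were 14.04% of 237 cells and 32.8% of 82. T or NK cells, among the lowest types, gave 2.18% and 2.55% after the same thinning, and 6.48% and 5.07% before it at medians of 6215 and 4471 UMIs, against 21042 and 19239 in plasma cells.

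High-Mt1 plasma cells were more frequent in the MYC library: 9 of 242 control cells and 19 of 86 MYC cells had 10 or more Mt1 UMIs, and the richest cell had 24 and 52. The 5 richest cells held 18.9% of the control's Mt1 UMIs and 33.6% of the other library's, and without them the log2 ratio was 1.61. Plasma cells of the libraries differed in other markers as well. Their own 9 markers summed to 24617 and 13138 CPM with 4 higher and 5 lower. Mature B markers summed to 3094 and 4620 CPM (3 of 11 higher) and monocyte markers to 826 and 3652 (7 of 10 higher). Erythroid progenitor markers, of the type richest in Mt1, summed to 98.4 and 111 CPM with 6 of 10 higher. Macrophage markers summed to 17.2 and 44.2 CPM with Cd5l and Spic at 0 in both. The part of these differences in the Mt1 gap was not tested.

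**Figure D5:**
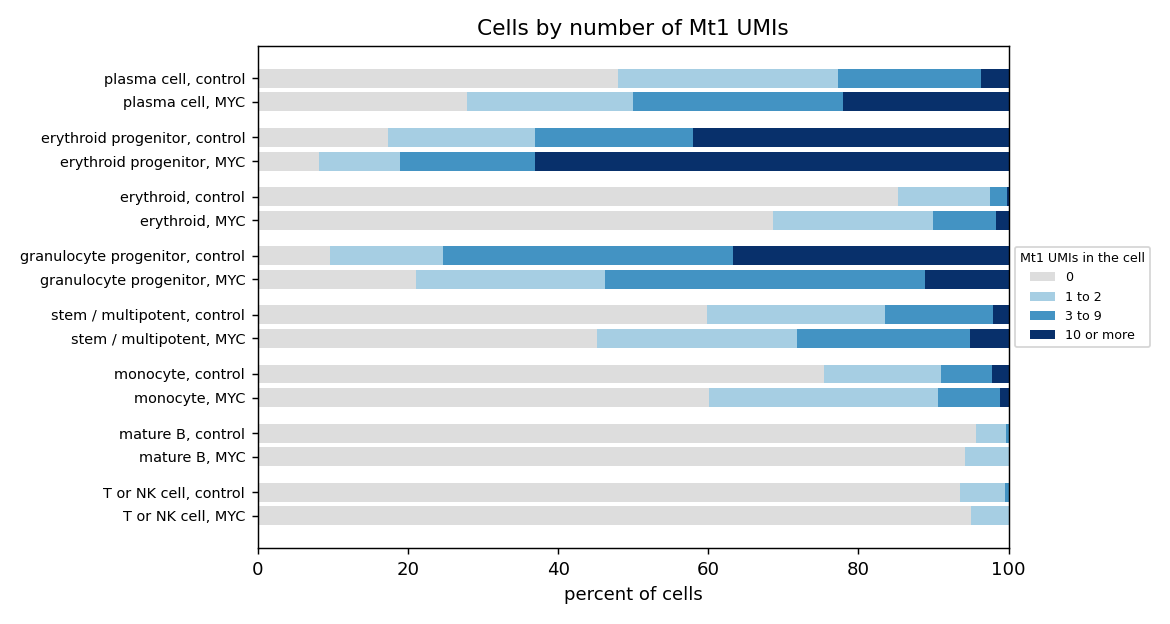
Percent of cells with 0, 1 to 2, 3 to 9 and 10 or more Mt1 UMIs in 8 cell types, 1 bar per type and library, not corrected for depth. Cells with 10 or more are 3.72% of control and 22.1% of MYC plasma cells, 42.0% and 63.1% of erythroid progenitors, and 36.7% and 11.1% of granulocyte progenitors.

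Erythroid cells had a wide Mt1 gap. These haemoglobin-rich stages (1169 control and 459 MYC cells) held 25.1 and 119 CPM of Mt1 in control and MYC, a log2 ratio of 2.25 (2.05 to 2.46). Mt2 was 14.8 and 39.9 CPM there (1.43, 1.12 to 1.74). Both sizes depended on how the type was drawn: other settings gave 2.11 to 5.15 for Mt1, the highest at Leiden resolution 2, and 1.30 to 2.95 for Mt2, the highest with doublets kept. Mtf1 was 27.0 and 58.5 CPM (1.12, 0.87 to 1.36), the one type of 13 in which Mtf1 had an interval above 0. Slc30a1 was not higher with them, at 20.9 and 16.0 CPM (-0.38, -0.81 to 0.02). Thus 3 of the 4 genes were called higher, beside 3.54% of 8471 genes, Mtf1 narrowly: its ratio was 0.99 with the 20 most abundant genes taken out of the totals.

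The cells of this type fell into clusters of unequal size in the libraries, cluster 8 with 805 control and 197 MYC cells and cluster 7 with 364 and 262. In cluster 8 Mt1 was 21.7 and 113 CPM (2.37, 2.13 to 2.62) and Mt2 16.5 and 40.1 CPM. Mtf1 was 28.3 and 50.8 CPM (0.84, 0.55 to 1.13) in it, under 2-fold. Cluster 7, of lower median depth (4000 and 1680 UMIs), had 45.4 and 139 CPM of Mt1 (1.61, 1.21 to 2.02). There Mtf1 was 18.8 and 80.4 CPM (2.10, 1.51 to 2.71) and Slc30a1 45.9 and 22.1 (-1.05, -1.80 to -0.37). Mt1 was called higher in both clusters, 8 and 7, where 3.63% and 18.7% of tested genes were called higher, but Mtf1 only in cluster 7. Erythroid progenitor markers summed to 5004 and 5612 CPM in cluster 8, with 3 of 10 higher, and to 1999 and 3071 in cluster 7, with 10 of 10 higher. Immature neutrophil markers summed to 2402 and 761 CPM in cluster 8 (0 of 10 higher) and to 8243 and 20360 in cluster 7 (9 of 10 higher). The part of these markers in the result was not tested.

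In erythroid progenitors (276 control and 111 MYC cells) Mt1 was 480 and 650 CPM, a log2 ratio of 0.44 (0.36 to 0.51). Its size depended on the clustering: the ratio was 1.71 with each library clustered on its own, between 0.86 and 0.92 with doublets kept, at Leiden resolutions 0.5 and 2 or with cells classified by markers, and at least 0.33 in all settings run. By UMI counts per cell, 42.0% and 63.1% of the cells had 10 or more Mt1 UMIs. Mt2 was 355 and 316 CPM (-0.17, -0.27 to -0.07), beside a median log2 ratio of -0.16 for all tested genes of the type. Its direction turned under 6 of 14 other settings, to values between 0.016 and 1.12. Mt2 was itself among the 10 leading genes of the cluster that makes up this type, although the 4 genes took no part in the clustering. Mtf1 was 31.4 and 30.4 CPM (-0.05, -0.39 to 0.28) and Slc30a1 7.38 and 4.58 (-0.69, -1.58 to 0.12), and neither interval excluded equal levels. With the joint clustering none of the 4 genes was called higher, beside 2.13% of 8903 genes.

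Granulocyte progenitors, which make the enzymes of the first neutrophil granules, had less Mt1 in the MYC library. The type (439 control and 361 MYC cells) held 406 and 211 CPM of Mt1, a log2 ratio of -0.95 (-1.03 to -0.86), under the 2-fold line that 2.84% of 9607 genes passed downwards. Cells with at least 1 Mt1 UMI were 90.4% (87.3 to 93.0) and 78.9% (74.4 to 83.0), and 49.1% and 30.9% after thinning to 2000 UMIs. The type's own 10 markers summed to 37720 and 38393 CPM, with 6 higher. Other settings gave ratios of -1.59 to -0.45.

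Immature neutrophils as a whole held 23.8 and 13.4 CPM of Mt1 (-0.83, -1.002 to -0.66). Of their 5 clusters only cluster 4, led by Fcnb, Camp and histone genes, had an interval below 0, at 43.6 and 16.7 CPM (-1.39, -1.61 to -1.17). In clusters 9 and 11, later in the series by their leading genes, Mt1 was 7.15 and 7.49 CPM and 5.88 and 8.54 CPM, with intervals across 0. The small cluster 12, also led by Fcnb, had 34.2 and 37.6 CPM (0.14, -0.40 to 0.67) and cluster 26 10.1 and 8.27 CPM (-0.29, -1.29 to 0.67). Mature neutrophils held 12.7 and 9.39 CPM (-0.44, -0.83 to -0.05), beside a median of -0.21 for all tested genes. They lay mostly in clusters 0 and 1 in the control and in cluster 3 in the MYC library. For the whole neutrophil lineage Mt1 was 88.1 and 39.9 CPM (-1.14, -1.22 to -1.07), the only one of the 4 genes called lower there, where 1.75% of 11729 genes were called lower. None of its 3 types was called by itself. Granulocyte progenitors held 80.6% of the lineage's control Mt1 UMIs, and they were 17.5% of its UMIs in control and 13.8% in MYC. With the control's shares of the 3 types the ratio was -0.91, under 2-fold, and it was -0.21 among cells under 5% mitochondrial UMIs. Immature neutrophils alone ranged from -1.06 to -0.25 under other settings.

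Stem or multipotent progenitors (189 control and 177 MYC cells) had 56.2 and 117 CPM of Mt1, a log2 ratio of 1.05 (0.82 to 1.29), beside 0.901% of 9208 genes called higher. The call was narrow: the ratio was below 1 in 3 of 12 other settings, at 0.90 with the 20 most abundant genes taken out of the totals and just under 2-fold with cells classified by markers and at the automatic doublet threshold. After thinning to 2000 UMIs 7.92% and 16.1% of the cells had an Mt1 UMI. The MYC cells of this type also had more granulocyte progenitor transcripts, a marker sum of 3236 and 6297 CPM with 8 of 10 higher, and less of the type's own, 1614 and 1182 CPM with 11 of 12 lower. The part of that shift in the Mt1 difference was not tested. Mt2 rested on 11 and 12 UMIs here.

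Monocytes as a whole held 56.5 and 58.4 CPM of Mt1 (0.05, -0.07 to 0.17), but their clusters went apart. Cluster 14, led by Vcan, Fn1 and Ccr2, had 11.9 and 43.4 CPM (1.87, 1.47 to 2.28), beside 3.58% of 8887 genes called higher. Cluster 15, led by Nrg1, Gria3 and Ass1, had 76.8 and 63.8 CPM (-0.27, -0.39 to -0.14). Other ways of clustering gave the whole type between -0.82 and 0.96. Mt2 was low in monocytes and lower in the MYC library, at 3.42 and 1.84 CPM (-0.89, -1.48 to -0.31). Nonclassical monocytes, the patrolling form, had 19.6 and 58.3 CPM of Mt1 (1.57, 1.08 to 2.07), with 3.98% of 6934 genes called higher. Unnamed cluster 19, nearly all of it from the MYC library, held 100.4 CPM of Mt1 there (368 UMIs) and 43.9 from 5 UMIs in the control. The cluster of nonclassical monocytes had as many dendritic cell as monocyte markers among its 10 leading genes, 3 of each.

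The remaining types rested on few UMIs. Megakaryocytes (58 cells in each library) had 4 and 20 UMIs of Mt1, a log2 ratio of 2.66 (1.08 to 4.67). Their cells of the MYC library also held more erythroid transcripts, with erythroid markers summing to 2146 and 15432 CPM (8 of 10 higher), whose part was not tested. Basophils or mast cells had 56 and 23 UMIs of Mt1 (-1.03, -1.80 to -0.31), and the value was 0.15 with doublets taken at Scrublet's automatic threshold. In T or NK cells Mt1 was 11.98 and 10.1 CPM, with an interval of -1.66 to 0.97.

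Mtf1 had an interval across 0 in whole marrow and an interval apart from 0 in 1 type in each direction. Its interval lay above 0 in erythroid cells alone, below 0 in immature neutrophils alone (35.6 and 29.8 CPM, -0.26, -0.38 to -0.13), and across 0 in the other 11. The interval in immature neutrophils included the median of all tested genes there, -0.19. With median-of-ratios scaling the Mtf1 ratio of that type was -0.07. In erythroid cells the ratio was between 0.99 and 2.92 in all other settings run. In plasma cells, where Mt1 and Mt2 were higher, Mtf1 had 39 and 9 UMIs (7.99 and 5.04 CPM, -0.67, -1.90 to 0.40).

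Slc30a1 went one way. Its log2 ratio was below 0 in 13 of 13 types, with an interval below 0 in 4 of them. In monocytes it was 10.5 and 4.84 CPM (-1.11, -1.46 to -0.77), and in immature neutrophils 4.16 and 1.68 CPM (-1.31, -1.78 to -0.85). In granulocyte progenitors it was 3.96 and 1.15 CPM (-1.79, -3.10 to -0.66) and in megakaryocytes 72.8 and 13.6 CPM (-2.42, -4.39 to -0.90). The median log2 ratio of all tested genes was also below 0 in 12 of the 13 types, between -0.28 and -0.07 and 0.03 in plasma cells, so ratios below 0 were common among tested genes. Only 6 types had at least 50 UMIs of Slc30a1 in all, and the 2-fold rule in CPM + 1 called it in 0 of them. The shares of genes called lower there were 1.15% in immature neutrophils, 5.27% in mature neutrophils, 2.44% in monocytes, 4.95% in nonclassical monocytes, 3.99% in erythroid progenitors and 3.49% in erythroid cells. Within the B lineage, which had 49 and 2 UMIs, it was called lower (-2.46, -5.54 to -0.53), as were 17.3% of tested genes. Clusters 7, 11 and 14 met the rule as well, where 3.7%, 2.73% and 4.46% of genes were called lower. The 13 negative signs did not hold in every setting: nonclassical monocytes reached 1.10 with each library clustered on its own, and T or NK cells 0.43 with doublets kept.

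Zinc is also moved by the other members of the ZnT family, which carry it out of the cytoplasm, and of the ZIP family, which carry it in. Of 24 such genes, Slc30a1 included, 19 had at least 50 UMIs over all kept cells. Of these 0 were called higher and 2 lower, beside 1.11% and 4.08% of all genes, and the median log2 ratio of the 19 was -0.34 beside -0.16 for all genes. Slc30a10, a manganese exporter of this family, was 2.96 and 0.332 CPM (log2 ratio -3.16, -3.72 to -2.64). Slc39a8, an importer of zinc, manganese and iron, was 8.16 and 3.34 CPM (-1.29, -1.47 to -1.11). Erythroid cells and progenitors, from which 320 of the 353 control UMIs of Slc30a10 came, are the 7.06% and 3.52% named above plus 11.5% and 3.84% of each library's UMIs. Within them Slc30a10 was 14.5 and 4.11 CPM (-1.82, -2.41 to -1.28), the one transporter of 15 called lower in the pooled class. There 2.67% of 9979 genes were called lower and 3.04% higher, and Slc39a8 was 31.3 and 15.9 CPM (-0.98). By type, Slc30a10 (-1.80) and Slc39a9 (-1.60) were called lower in erythroid cells, beside 3.49% of genes. In erythroid progenitors Slc39a8 was (-1.46), beside 3.99%, and Slc30a10 (-1.26) was not. In the B lineage 4 of 16 transporters were called lower, beside the 17.3% above: Slc30a1, Slc30a4 (11.6 and 3.16 CPM), Slc30a9 (23.7 and 10.3 CPM) and Slc39a9 (16.2 and 7.503 CPM). Within plasma cells Slc30a9 had a log2 ratio of -1.11 and Slc39a9 of -1.23. Slc30a1 had only 13 and 1 UMIs there, and Slc30a4 5 and 1.

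The other metallothioneins were hardly detected: Mt3 had 39 and 4 UMIs in all kept cells and Mt4 0 in both libraries. Of 7 other genes reported as MTF1 targets 6 had at least 50 UMIs, and 1 of these was called lower in all kept cells, beside 4.08% of genes. This was Gclc, the catalytic subunit for glutathione synthesis, at 61.2 and 21.1 CPM (-1.54, -1.61 to -1.47). It was called lower in erythroid cells and progenitors too (217 and 102 CPM, beside 2.67% of genes) and in the B lineage (50.2 and 8.69 CPM, beside 17.3%). Csrp1 was called lower in the B lineage as well, at 39.6 and 18.2 CPM. The makeup of that lineage differed, with plasma cells at 43.2% of its UMIs in control and 70.5% in MYC. Within plasma cells the log2 ratio was -1.50 for Gclc and -0.22 for Csrp1. The median log2 ratio of the targets was 0.54 in erythroid cells and progenitors pooled, beside -0.03 for all genes there, but -0.02 in erythroid cells alone and 0.18 in erythroid progenitors, beside -0.07 and -0.16. It was -0.99 in the B lineage, beside -0.42. The 4 with ratios above 0 in the pooled erythroid class, none of them called, were Ndrg1 (0.94), Selenoh (0.65), Selenow (0.62) and Slc39a10 (0.52). The list does not sort the targets by the direction in which MTF1 acts on each, so its medians describe the genes only.

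Among 12 copper-handling genes Atp7b, a copper-exporting ATPase, was the one called in all kept cells, at 5.64 and 1.44 CPM, beside 4.08% of genes called lower. Erythroid cells and progenitors, a smaller part of the MYC library, held 592 of its 671 control UMIs. Within them it was 26.9 and 14.8 CPM (-0.86), under 2-fold. The ratio was -1.50 in erythroid cells and -0.94 in erythroid progenitors. Sco2, which delivers copper to cytochrome c oxidase, was called higher in the B lineage (5.31 and 16.6 CPM) and in erythroid cells and progenitors (6.08 and 18.8 CPM), where 3.16% and 3.04% of genes were called higher. Ccs, the copper chaperone of superoxide dismutase, was called higher in the B lineage at 6.998 and 18.6 CPM. Its client Sod1 was called lower there at 130.03 and 52.1 CPM, beside 17.3% of genes. Within plasma cells the log2 ratios were 2.19 for Sco2, 1.49 for Ccs and -0.88 for Sod1, the last under 2-fold. Of 8 glucocorticoid-induced genes 0 were called in all kept cells or in the B lineage, and Ddit4 was called higher in erythroid cells and progenitors (1.54 and 5.07 CPM), beside 3.04% of genes. There 5 of the 8 had enough UMIs, all 5 with ratios above 0 and a median of 0.63. In erythroid cells alone 3 lay above 0 and 1 below (median 0.58), and in erythroid progenitors 3 and 1 (median 0.25). In the B lineage 2 lay above 0 and 4 below (median -0.22). Of 8 oxidative stress genes Gclc was the one called in all kept cells (4.08% of genes were called lower), while in erythroid cells and progenitors Slc7a11, the cystine importer, was called higher (3.17 and 9.32 CPM) and Nqo1, a quinone reductase, lower (19.3 and 9.04 CPM), beside 3.04% and 2.67% of genes in those directions.

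Genes most like Mt1 in their levels were ranked by Pearson correlation of log2(CPM + 1) over 26 points, the 13 types in each library, among 5547 genes. The points share libraries, depth and a few progenitor types that are high for many genes, so the values are descriptive. Closest to Mt1 were Nars (r = 0.84) and Mars (0.82), which charge transfer RNAs, Htra2 (0.82), a mitochondrial protease, Uqcrq (0.81), a respiratory chain subunit, and Srp19 (0.79), of the signal recognition particle. Closest to Mt2 were Car1 (0.72), the carbonic anhydrase of early red cells, Josd1 (0.72), Isg20 (0.69), Slc38a5 (0.68) and Nudt9 (0.68), each highest in erythroid progenitors or erythroid cells. Mt1 and Mt2 themselves gave r = 0.57 and Spearman's rho = 0.18, Mt1 and Mtf1 r = 0.15 and rho = 0.30, and Mt2 and Mtf1 r = -0.10 and rho = -0.04.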

How the data were processed

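The deposited values are UMI counts, whole numbers for each gene in each barcode. Per the file headers Cell Ranger 6.0.0 made them; the submitters' processing notes name Cell Ranger 6.0, Seurat and the build GRCm38 (mm10). The annotation behind the counts, the cell calling and any earlier doublet removal are not given in the sources used here. The members, the gene lists and the comparisons were chosen with earlier results of these data known.

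Cells with at least 500 UMIs, at least 200 genes and under 10% mitochondrial UMIs were used. Of barcodes, 1609 control and 1600 MYC ones had too many mitochondrial UMIs. Scrublet's automatic threshold marked 558 control cells and 0 of 12896 MYC cells, so the 5% of cells with the highest doublet scores were removed in each library instead (773 and 645), a choice made after seeing the data. Both libraries were clustered together (scanpy 1.11.5, 2000 variable genes without those of the lists, 30 principal components, 15 neighbours, Leiden resolution 1). A cluster was named from its markers if no other class had more markers than its own among the 10 leading genes; 2 own markers were asked of clusters under 1/3 of their library's median UMIs. A stricter first version had left clusters 2, 8, 23 and 26 unnamed. Erythroid cells and progenitors together, the B lineage and the neutrophil lineage are sums of types. Neither free RNA nor library differences were corrected.

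UMIs were summed by type and library and given as CPM with exact Poisson intervals, ratios with exact conditional binomial intervals and shares with exact Clopper-Pearson intervals; PCR duplicates are removed by UMIs, and the intervals cover counting error only. Genes named beside the 4 were those of the lists past 2-fold with at least 50 UMIs in all kept cells, the B lineage or the erythroid class, at most 6 a list. The erythroid class held the most Mt1 UMIs over both libraries together, but in the control the neutrophil lineage held more (4589 against 4372). Also named were the 5 genes most like Mt1 and Mt2 with a mean of at least 20 CPM. For that ranking the classes were read as the 13 types. Genes or clusters named beyond the rule were chosen after their values were seen. Promoters are RefSeq windows of GRCm38.p6 and positions are GENCODE's, matched by gene identifier. The calculations were tested on simulated counts.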

Additional observations from a re-analysis of the deposited data

Results flagged for a closer look

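Mt1 moved in opposite directions in different cell types under the same comparison. Its log2 ratio of MYC over control was 2.25 in erythroid cells and -1.03 in basophils or mast cells, a difference of 3.28. The value in basophils or mast cells rests on 56 and 23 UMIs and was 0.15 at the automatic doublet threshold. Mt2 was at 1.43 in erythroid cells and -0.89 in monocytes, which lie 2.32 apart. Mtf1 was at 1.12 in erythroid cells and -0.26 in immature neutrophils, 1.37 apart. In each pair the counting intervals lay on opposite sides of 0. That of Mtf1 in immature neutrophils included the median of all tested genes there, -0.19. With 1 library per group these differences were not tested.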

How the results depend on the processing

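With 1 library per genotype nothing here measures variation between animals, and types with few UMIs (megakaryocytes, basophils or mast cells, and Slc30a1 nearly everywhere) are limited by depth. No paired analysis was possible because each group has a single library and no test was run. In all kept cells Mt1 turned from -0.22 to 0.22 as a mean over cells, 0.38 under 5% mitochondrial UMIs and 0.26 at the control's makeup, and moved to -0.064 with median-of-ratios scaling, -0.31 with the 20 most abundant genes out of the denominator and -0.27 with the top 10% of doublet scores removed. Under those scalings Mt2 was -0.70 and -0.95, and it was -0.41 as a mean over cells, -0.34 under 5% mitochondrial UMIs and 0.066 at the control's makeup. Mtf1 was 0.11 with median-of-ratios scaling, -0.14 with those 20 genes out, 0.053 as a mean over cells, 0.032 under 5% mitochondrial UMIs and 0.049 at the control's makeup. Slc30a1 was -0.80 as a mean over cells, -1.20 without the richest 1% of cells and -0.80 at the control's makeup. In the B lineage Mt1 was 1.78 as a mean over cells, 2.75 with median-of-ratios scaling, 2.61 without the richest 1% of cells, 2.09 without the 5 richest cells and 1.61 at equal weight of the 3 types; Mt2 was 1.24, 2.38, 2.37 and 1.20 under all of these but the fourth. Transporters called lower numbered 4 at 1.5-fold, 1 with median-of-ratios scaling and 1 under 5% mitochondrial UMIs, against 2. Mt2 in erythroid progenitors turned to 0.016 under 5% mitochondrial UMIs, 0.28 with doublets kept, 0.25 and 0.23 at Leiden resolutions 0.5 and 2, 0.25 with cells classified by markers alone and 1.12 with libraries clustered apart. Mt1 in basophils or mast cells turned to 0.15 at the automatic doublet threshold. The cause was not tested for any of these. The automatic and 10% doublet settings, the control's makeup and the removal of the 5 richest cells were chosen after seeing the data. For single types and the neutrophil lineage 636 other values stayed within the counting interval and 84 moved beyond it, a few of them across 0 where the interval had included 0.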
